A study of Mus musculus with 27 samples.

Results

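The genes described here are 10 surface receptors and receptor subunits through which macrophages take up lipoproteins, dying cells and antibody-coated particles: the scavenger receptors Msr1, Marco, Cd36, Scarb1 and Stab1, and the Fc receptor genes Fcgr1, Fcgr2b, Fcgr3, Fcgr4 and Fcer1g. They were taken by gene symbol from a table of 45070 genes, and each symbol matched 1 row. Of the 10, 9 had a normalized read count of at least 10 in at least 3 of the 27 samples and were tested together with the rest of the 13901 genes that did so. The exception was Fcgr3, which was listed at 0 in every sample. Marco passed this filter through its LPS groups alone, so a difference for Marco was built into the selection, and counts that include it are given without it as well.

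Macrophages were grown from the bone marrow of male wild type C57/BL6 mice aged 6 to 8 weeks (bone marrow-derived macrophages, BMDMs). Every sample, the untreated ones included, first spent 1 h in DMSO, a solvent control. The cells were then left untreated or given lipopolysaccharide (LPS), a part of the bacterial outer membrane that TLR4 senses, or interleukin-4 (IL-4), a cytokine that signals through STAT6, each at 10 ng/ml and for 0.5, 1, 2 or 4 h. This gave 9 groups of 3 replicates. The RNA was chromatin-associated RNA, the fraction still held at the genes, which reports recent transcription more than the stored mRNA pool. Whether the replicates were separate cultures or animals is not stated, so p-values measure the spread between these samples only. Since these are bulk samples, fewer cells expressing a gene and less RNA per cell cannot be told apart.

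Scavenger receptors bind modified lipoproteins, bacterial surfaces and debris without antibody. Fc receptors bind the constant part of IgG: the high affinity receptor Fcgr1 and the low affinity receptors Fcgr3 and Fcgr4 need the signalling subunit encoded by Fcer1g, which carries an activating ITAM motif, whereas Fcgr2b carries its own inhibitory ITIM motif. The balance between activating and inhibitory Fc receptors sets how strongly a macrophage answers immune complexes. Both receptor families are widely used to describe macrophage activation states.

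The sum of normalized read counts lay between 3571492 and 4058199 in the 12 LPS samples and between 2469768 and 2790981 in the other 15. The authors scaled the values, so these sums are not sequencing depths, which are unknown. The median tested gene was lower under LPS than in untreated samples, by a log2 change between -0.24 and -0.30, and stayed between -0.02 and 0.02 under IL-4. Of the genes called under LPS 36.3 to 40.8% were higher, a share of 48.7 to 50% with median-of-ratios scaling and 17.7 to 22.9% with equal totals, while under IL-4 it was 50 to 53.1%, 44.9 to 49.3% and 31.2 to 53.7%. Macrophage markers were present in every sample, with Adgre1 (the gene of F4/80) between 4051 and 12142 and Csf1r between 427 and 3505, while the summed markers of B, T and NK cells reached at most 8, 14 and 5 normalized read counts and those of mast cells or basophils at most 11. Cd3e, Cd3g, Ly6g, Fcer1a and Xcr1 were at 0 throughout. The 7 neutrophil markers summed to 6 to 17 in untreated samples, 16 to 136 at 2 h and 33 to 88 at 4 h of LPS. With IL-4 they summed to 8 to 45 at 0.5 h and 14 to 33 at 4 h. The 5 dendritic cell markers summed to 11 to 20 in untreated samples and 55 to 99 at 1 h of LPS, mostly Zbtb46. The 5 endothelial markers summed to 65 to 78 in untreated samples and 149 to 200 at 4 h of LPS, mostly Kdr. Their sums were 87 to 139 at 0.5 h of LPS and 79 to 104 at 0.5 h of IL-4. At 4 h of IL-4 they were 108 to 137, with a Vwf mean of 106 against 42 untreated. At 1 and 2 h of either stimulus they lay between 47 and 84. The part of these genes in the changes below was not tested.

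One library per group stood apart for some members. Replicate 1 was the highest of its group in 8 of 9 groups for Marco and in 7 for Stab1, and the lowest in 8 for Msr1 and in 6 for Cd36. In the median group the log2 ratio of replicate 1 to the mean of replicates 2 and 3 was 1.78 for Marco, 0.53 for Stab1, -0.60 for Msr1 and -0.79 for Cd36. For Fcgr2b, Fcer1g and Scarb1 it lay between -0.06 and 0.02. Values without replicate 1 are given where they matter.

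The F test over the 4 LPS times was passed by 9 of 9 tested members, or 8 of 8 without Marco, where 87.6% of all tested genes passed it, so passing sets none of them apart and the direction, size and timing are what the values below describe. At 0.5 h of LPS 3 members were higher than in untreated samples (Msr1, Cd36, Fcgr2b), against 19.6% of all tested genes, and 3 were lower (Scarb1, Fcgr1, Fcgr4), against 34.4%. At 1 h 4 were higher (Msr1, Marco, Fcgr2b, Fcer1g; background 24.8%) and 3 lower (Scarb1, Stab1, Fcgr1; background 39.0%). At 2 h and at 4 h the same 6 members were higher (Msr1, Marco, Fcgr1, Fcgr2b, Fcgr4, Fcer1g), against 26.9% and 25.9% of all tested genes, and the same 3 were lower (Cd36, Scarb1, Stab1), against 39.0% and 37.6%. Without Marco the members higher were 3 at 1 h and 5 at 2 and 4 h. Thus the 4 detected Fc receptor genes were all higher from 2 h on, whereas the scavenger receptors divided into 2 that were higher and 3 that were lower. The median log2 change of the 9 members was 0.31, 0.55, 2.94 and 3.74 from 0.5 to 4 h, where that of all tested genes was -0.24, -0.30, -0.29 and -0.26. Without Marco it was 0.03, 0.48, 2.59 and 2.96.

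IL-4 moved fewer members. Over the 4 IL-4 times 7 of 9 tested members, or 7 of 8 without Marco, passed the F test, against 40.3% of all tested genes. It was missed by Marco (adjusted p = 0.979, limma) and Fcgr1 (adjusted p = 0.0582, limma). Cd36 and Fcgr2b were higher at 0.5 h (background 8.15%) and at 1 h (background 11.1%). Scarb1 and Fcer1g were lower at 0.5 h (background 8.14%), and Scarb1 alone was lower at 1 h (background 9.83%). Fcgr2b was the only member higher at 2 h and at 4 h, where 14.3% and 13.4% of all tested genes were higher. Msr1, Cd36 and Stab1 were lower at 2 h (background 13.2%), and these 3 together with Fcgr1 and Fcgr4 were lower at 4 h (background 12.5%). Without replicate 3 the 6 members called at 4 h became 3. The median log2 change of the 9 members was 0.19, -0.25, -0.34 and -0.86, where that of all tested genes lay between -0.02 and 0.02. Without Marco it was 0.20, -0.37, -0.41 and -0.94. Both courses were set against the same 3 untreated samples.

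**Figure D1:**
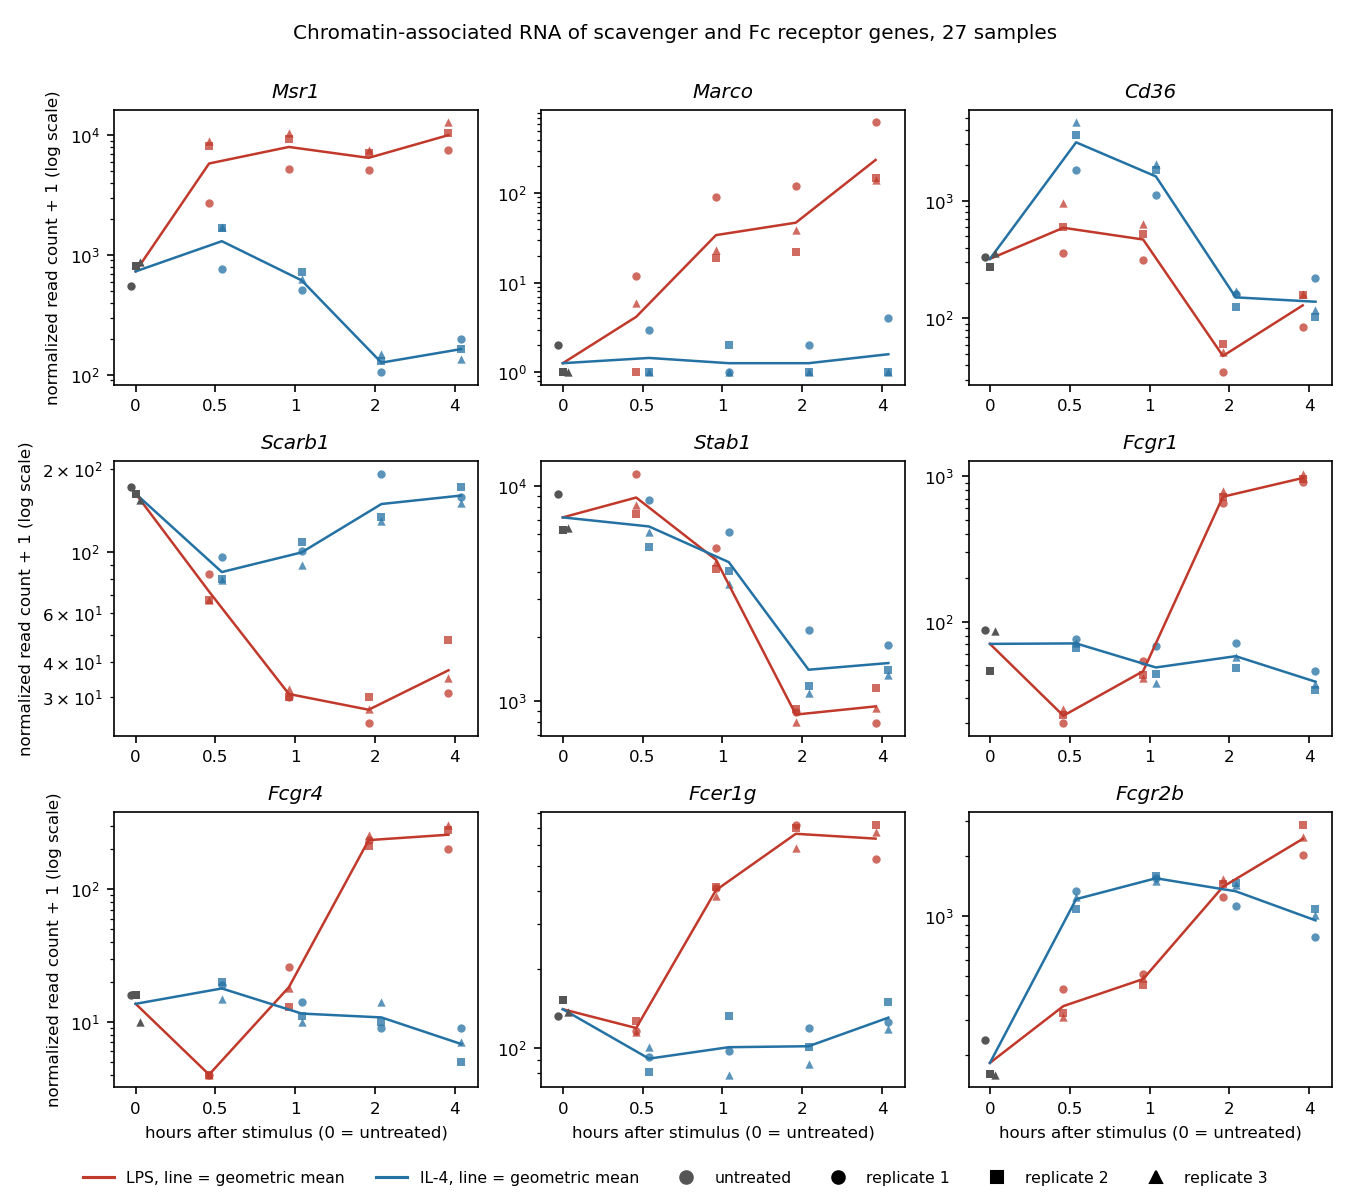
Normalized read count plus 1 (vertical, log scale) of the 9 detected members against hours after stimulus (horizontal, 0 is untreated), with 1 point per sample, circles, squares and triangles for replicates 1, 2 and 3, and lines through the geometric means for LPS (red) and IL-4 (blue). Msr1, Marco, Fcgr1, Fcgr4 and Fcer1g separate upwards under LPS, Cd36 peaks at 0.5 h of IL-4, and Fcgr2b is above untreated in all 24 stimulated samples.

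Msr1 encodes scavenger receptor A, a class A receptor for acetylated lipoproteins and bacterial surfaces. Its normalized read counts were 551, 810 and 865 in untreated replicates 1, 2 and 3, the order kept below. Under LPS they were 2720, 8071 and 8917 at 0.5 h, 5255, 9316 and 10396 after 1 h, 5098, 7055 and 7536 after 2 h, and 7538, 10459 and 12781 after 4 h. Every LPS sample was above every untreated sample, with replicate 1 the lowest at each time. The log2 change was already 2.99 ± 0.38 (SE, n = 3) at 0.5 h and was 3.78 ± 0.38 at 4 h (adjusted p = 9.18e-06 and 3.50e-07, limma). Under IL-4 Msr1 read 760, 1693 and 1717 at 0.5 h, where the replicates overlapped the untreated ones, and 508, 722 and 627 at 1 h. It then read 104, 128 and 147 at 2 h and 197, 163 and 134 at 4 h, below every untreated sample. Thus Msr1 fell by 2.53 on the log2 scale at 2 h of IL-4 and by 2.16 at 4 h (adjusted p = 1.57e-05 and 7.39e-05, limma). The early IL-4 difference of 0.84 missed the threshold (adjusted p = 0.0632, limma) and was 1.03 without replicate 1 (adjusted p = 0.000102, limma).

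Marco, a class A receptor for bacteria and particles, was close to 0 without LPS. It read 1, 0 and 0 in untreated samples and between 0 and 3 in the 12 IL-4 samples. Under LPS it read 11, 0 and 5 at 0.5 h, 90, 18 and 22 after 1 h, 120, 21 and 38 after 2 h, and 620, 149 and 141 after 4 h. From 1 h on every LPS sample was above every untreated and IL-4 sample, and replicate 1 was several times above the other replicates. The fitted log2 change of Marco was 4.76 ± 0.88 at 1 h and 7.55 ± 0.88 at 4 h. As its selection used these groups, its p-values are those of the fit without the filter on low values (adjusted p = 0.00361 and 0.000124, limma). The size of these changes depends on the pseudocount, as the untreated level is near 0: at 4 h it was 4.88 with a pseudocount of 8, and it was 7.19 without replicate 1. The 0.5 h value of 1.72 missed the threshold in that fit (adjusted p = 0.289, limma). Under IL-4 the log2 change of Marco was 0.33 or less at each time and passed at none.

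Cd36, a class B receptor that takes up long-chain fatty acids and oxidized lipoproteins, had its highest level at 0.5 h of IL-4. It read 334, 274 and 356 in untreated samples. With IL-4 it read 1827, 3620 and 4604 at 0.5 h and 1114, 1827 and 2027 at 1 h, all above untreated, then 161, 124 and 169 at 2 h and 220, 102 and 116 at 4 h, all below it. Its log2 change with IL-4 was 3.29 ± 0.34 at 0.5 h and 2.32 ± 0.34 at 1 h (adjusted p = 1.40e-05 and 0.000208, limma). At 2 and 4 h it was lower by -1.09 and -1.21 (adjusted p = 0.0297 and 0.0183, limma), calls that were lost without replicate 2 (adjusted p = 0.201 and 0.19, limma) and without replicate 3 (adjusted p = 0.158 and 0.199, limma). Under LPS Cd36 read 356, 599 and 950 at 0.5 h and 313, 517 and 628 after 1 h, and both groups reached down into the untreated range. The LPS change of 0.88 at 0.5 h just passed (adjusted p = 0.0439, limma) and did not pass without replicate 2 (0.75, adjusted p = 0.273, limma) or 3 (0.61, adjusted p = 0.26, limma) or with equal totals (0.37, adjusted p = 0.39, limma). At 1 h it was 0.55 (adjusted p = 0.182, limma), or 0.87 without replicate 1 and 0.81 with median-of-ratios scaling (adjusted p = 0.00119 and 0.0375, limma). By 2 h of LPS it read 34, 60 and 51, and at 4 h 83, 157 and 161. All 6 of these samples were below every untreated sample, and Cd36 fell by 2.74 and 1.31 on the log2 scale (adjusted p = 4.89e-06 and 0.0039, limma).

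Scarb1 encodes SR-BI, the class B receptor for high density lipoprotein. It read 171, 161 and 153 in untreated samples, 82, 66 and 66 at 0.5 h of LPS, 29, 29 and 31 after 1 h, 23, 29 and 26 after 2 h, and 30, 47 and 34 after 4 h. No LPS sample reached the untreated range. The log2 change was -1.18 ± 0.18 at 0.5 h and -2.60 ± 0.18 at 2 h (adjusted p = 7.60e-05 and 6.69e-09, limma). With IL-4 it read 95, 79 and 78 at 0.5 h and 100, 108 and 89 at 1 h, below untreated, and then 191, 133 and 128 at 2 h and 157, 171 and 150 at 4 h, where the groups overlapped. The decrease at 0.5 h of IL-4 was -0.94 ± 0.14 (adjusted p = 0.000365, limma). At 1 h it was -0.70 ± 0.14 (adjusted p = 0.00257, limma), with adjusted p = 0.0543 without replicate 2 and 0.0638 without replicate 3 (limma). At 4 h the difference was -0.02, with a 95% interval from -0.33 to 0.28. A non-coding gene on the other strand within Scarb1, Gm32701, had means between 2.67 and 15 in the 9 groups.

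Stab1 encodes stabilin-1, a class H receptor that clears acetylated lipoproteins and matrix fragments. It had the highest level of the 10 genes per kilobase in untreated samples, at 9175, 6265 and 6428 normalized read counts. Under LPS it read 11459, 7437 and 8206 at 0.5 h and 5184, 4112 and 4441 at 1 h, then 890, 918 and 798 at 2 h and 789, 1158 and 929 at 4 h. The IL-4 course read 8641, 5212 and 6135 at 0.5 h, 6162, 4061 and 3508 after 1 h, 2141, 1176 and 1096 after 2 h, and 1831, 1404 and 1330 after 4 h. With either stimulus the first time point overlapped untreated and the 2 and 4 h samples lay far below it. Stab1 fell by 3.05 ± 0.19 at 2 h of LPS and by 2.35 ± 0.28 at 2 h of IL-4 on the log2 scale (adjusted p = 1.05e-09 and 2.69e-05, limma). The decrease of -0.65 at 1 h of LPS passed (adjusted p = 0.00616, limma), but not without replicate 3 (-0.72, adjusted p = 0.0531, limma) or with median-of-ratios scaling (-0.39, adjusted p = 0.11, limma). At 0.5 h of LPS the change of 0.31 (adjusted p = 0.178, limma) passed without replicate 1 (0.30, adjusted p = 0.0275, limma) and with median-of-ratios scaling (0.55, adjusted p = 0.0361, limma). The IL-4 value at 1 h was -0.69 (adjusted p = 0.103, limma), or -0.75 without replicate 1 (adjusted p = 0.000202, limma). Gm52148 and the end of Nt5dc2 lie on the other strand of Stab1. Gm52148 had means between 31 and 275, highest and lowest in the same groups as Stab1 under LPS, and since strand is not stated their reads cannot be told apart. Nt5dc2, between 3.67 and 214, was 12.7 at 1 h of LPS, while Stab1 was 4579 there.

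Fcgr1, the high affinity IgG receptor CD64, fell before it rose under LPS. It read 87, 45 and 85 in untreated samples, 19, 22 and 24 at 0.5 h of LPS and 53, 42 and 40 at 1 h. At 2 h it read 657, 719 and 794, and at 4 h 915, 960 and 1038. The 0.5 h samples were all below and the 2 and 4 h samples all above untreated, with the 1 h samples in between and overlapping it. The log2 change was -1.64 ± 0.21 at 0.5 h, -0.62 ± 0.21 after 1 h, 3.36 ± 0.21 after 2 h and 3.79 ± 0.21 after 4 h (adjusted p = 1.04e-05, 0.0171, 1.47e-09 and 3.57e-10, limma). The 1 h value was -0.40 without replicate 3 (adjusted p = 0.269, limma) and -0.37 with median-of-ratios scaling (adjusted p = 0.142, limma). With IL-4 Fcgr1 read 75, 65 and 70 at 0.5 h, 67, 43 and 37 after 1 h, 70, 47 and 56 after 2 h, and 45, 33 and 36 after 4 h, where 1 sample touched the lowest untreated value. The change at 4 h was -0.86 ± 0.26 (adjusted p = 0.0273, limma) and was lost without replicate 3 (-0.69, adjusted p = 0.302, limma).

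Fcgr4, a low affinity activating receptor for IgG2a and IgG2b, followed the same course at a lower level. It read 15, 15 and 9 in untreated samples and 3, 3 and 3 at 0.5 h of LPS. It then read 25, 12 and 17 after 1 h, 235, 213 and 256 after 2 h, and 199, 280 and 305 after 4 h. The log2 change was -1.77 ± 0.27 at 0.5 h and 4.24 ± 0.27 at 4 h (adjusted p = 4.96e-05 and 1.50e-09, limma), and 0.42 ± 0.27 at 1 h (adjusted p = 0.184, limma), or 0.66 there with median-of-ratios scaling (adjusted p = 0.0455, limma). With a pseudocount of 8 the change was -0.92 at 0.5 h and 3.67 at 4 h of LPS. Under IL-4 Fcgr4 read 18, 19 and 14, then 13, 10 and 9, then 8, 9 and 13, and at 4 h 8, 4 and 6, the only IL-4 group below every untreated sample. That difference of -1.01 ± 0.28 (adjusted p = 0.0175, limma) rested on few reads and was lost without replicate 2 (-0.67, adjusted p = 0.307, limma) and without replicate 3 (-1.25, adjusted p = 0.0539, limma). The small nuclear RNA gene Gm26110 lies within Fcgr4 on the same strand and never exceeded 2.

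Fcer1g encodes the common gamma chain that carries the activating signal of Fcgr1, Fcgr3 and Fcgr4. It read 132, 152 and 136 in untreated samples and 115, 126 and 114 at 0.5 h of LPS, where the change of -0.24 missed the threshold (adjusted p = 0.127, limma), though with equal totals it was -0.75 (adjusted p = 0.000128, limma). It then read 409, 415 and 383 after 1 h, 714, 697 and 583 after 2 h, and 531, 716 and 671 after 4 h, all above untreated. Fcer1g was thus higher by 1.52 ± 0.13 at 1 h and by 2.24 ± 0.13 at 2 h on the log2 scale (adjusted p = 6.95e-08 and 5.16e-10, limma). The change of Fcgr1 at 1 h was -0.62, a call lost without replicate 3 and with median-of-ratios scaling. With IL-4 Fcer1g read 91, 80 and 100 at 0.5 h, 96, 132 and 78 after 1 h, 118, 100 and 86 after 2 h, and 125, 149 and 117 after 4 h. The decrease at 0.5 h of IL-4 was -0.63 ± 0.18 (adjusted p = 0.0251, limma), with adjusted p = 0.0625, 0.195 and 0.0706 without replicate 1, 2 and 3 in turn (limma). The F test of Fcer1g over the IL-4 course passed (adjusted p = 0.0371, limma) and likewise did not pass with any 1 replicate left out (adjusted p between 0.087 and 0.15, limma). At 2 h of IL-4 its change of -0.47 (adjusted p = 0.0635, limma) was -0.50 with either other scaling (adjusted p = 0.0441 and 0.0477, limma).

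Fcgr2b, the inhibitory receptor, was the only member higher with both stimuli at every time. It read 235, 160 and 158 in untreated samples, 427, 325 and 310 at 0.5 h of LPS, 508, 448 and 485 after 1 h, 1242, 1446 and 1523 after 2 h, and 2023, 2863 and 2496 after 4 h. With IL-4 it read 1327, 1084 and 1236 at 0.5 h, 1548, 1590 and 1494 after 1 h, 1124, 1453 and 1433 after 2 h, and 781, 1077 and 1012 after 4 h. All 24 stimulated samples were above the highest untreated sample. The LPS change grew from 0.95 ± 0.17 at 0.5 h to 3.74 ± 0.17 at 4 h on the log2 scale (adjusted p = 0.000276 and 4.05e-11, limma). The IL-4 change was 2.73 ± 0.16 at 0.5 h, 3.08 ± 0.16 at 1 h and 2.38 ± 0.16 at 4 h (adjusted p = 1.15e-07, 1.44e-08 and 1.67e-07, limma). The mean was 13.3 times the untreated mean at 4 h of LPS and 8.38 times at 1 h of IL-4. In transcripts of GENCODE vM21, 92 of the 5771 windows of 76 bases in Fcgr2b also occurred in Fcgr3, and windows shared with any other gene made up 5.39%.

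**Figure D2:**
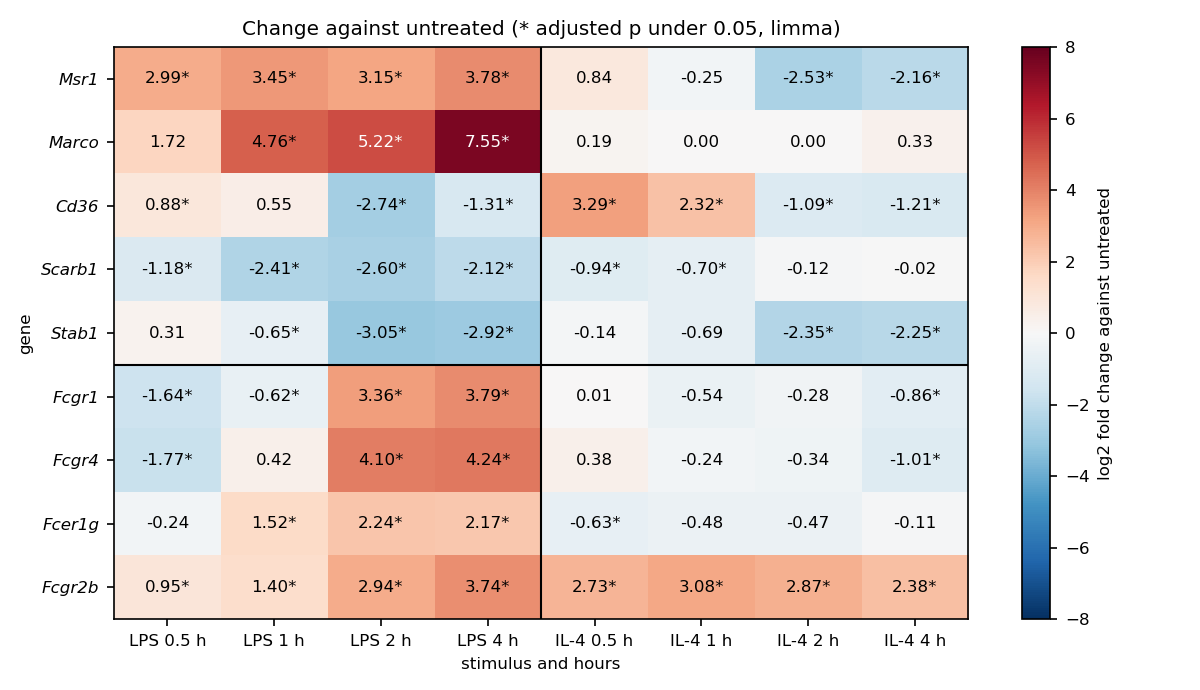
Log2 fold change against untreated (colour and number) for the 9 detected members (rows, scavenger receptors above the line) in the 4 LPS and 4 IL-4 groups (columns), with * where the adjusted p was under 0.05 in limma. Fcgr2b is marked in all 8 columns, Marco in 3 and Fcgr1 and Fcgr4 change sign between 0.5 h and 2 h of LPS.

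Fcgr3, the low affinity activating receptor CD16, was listed at 0 in all 27 samples. It lies on chromosome 1 at 171051169 to 171059403 (GRCm38), 21407 bases from Fcgr4 and 170168 bases from Fcer1g, both of which had reads. The features of the table from 171033230 to 171111515 were 28 in number, 25 of them tRNA genes and Fcgr3 the only protein-coding one, and all 28 were at 0 in every sample. Of all protein-coding genes listed, 20.6% were at 0 throughout, as were 256 of 425 tRNA features. Of the 1733 windows of 76 bases in Fcgr3 transcripts, 5.31% also occurred in Fcgr2b. The authors discarded multi-mapping reads and blacklisted regions of the genome, and the part of either step in these zeros was not tested. No level or change can therefore be given for Fcgr3.

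The promoters of the 4 detected Fc receptor genes are shown because these genes were higher together from 2 h of LPS on, while Fcgr2b alone was higher with IL-4. Each is the 250 bases before the annotated start, from RefSeq on GRCm38.p6, written 5′ to 3′ on the strand of the gene. The table of promoters matched 8 of the 10 members. The windows are chr3:96293970-96294219 on the minus strand for Fcgr1, chr1:171018676-171018925 on the plus strand for Fcgr4, chr1:171234350-171234599 on the minus strand for Fcer1g and chr1:170976072-170976321 on the minus strand for Fcgr2b. Capitals mark letters that match a searched motif other than PU.1, which occur in the Fcgr4 window alone.
Fcgr1: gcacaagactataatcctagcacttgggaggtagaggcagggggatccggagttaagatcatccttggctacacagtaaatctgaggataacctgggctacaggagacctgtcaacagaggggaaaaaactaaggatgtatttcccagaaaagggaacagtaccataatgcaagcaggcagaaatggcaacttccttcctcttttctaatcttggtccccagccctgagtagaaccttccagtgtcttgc
Fcgr4: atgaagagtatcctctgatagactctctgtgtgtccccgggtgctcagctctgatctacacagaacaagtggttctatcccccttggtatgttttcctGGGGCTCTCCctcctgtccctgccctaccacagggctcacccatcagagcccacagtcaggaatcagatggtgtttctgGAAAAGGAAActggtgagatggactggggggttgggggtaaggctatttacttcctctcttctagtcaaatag
Fcer1g: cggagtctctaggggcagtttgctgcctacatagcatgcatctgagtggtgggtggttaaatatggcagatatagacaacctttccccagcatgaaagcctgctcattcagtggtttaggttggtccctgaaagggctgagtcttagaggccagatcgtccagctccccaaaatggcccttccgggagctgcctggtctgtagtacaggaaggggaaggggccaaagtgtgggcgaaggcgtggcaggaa
Fcgr2b: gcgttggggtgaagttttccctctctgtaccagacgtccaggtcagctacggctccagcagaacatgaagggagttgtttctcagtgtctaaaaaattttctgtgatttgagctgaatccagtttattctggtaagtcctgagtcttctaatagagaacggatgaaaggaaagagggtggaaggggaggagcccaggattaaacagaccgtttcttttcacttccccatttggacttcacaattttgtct

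The motifs were searched on both strands in windows of 300 bases, from 250 before to 50 after the start. The interferon-type ISRE (GAAANNGAAA) occurred in 3.44% of all 32851 promoters and in Fcgr4, as GAAAAGGAAA at position -73. The kappaB site occurred in 4.51% and in Fcgr4, as GGGGCTCTCC at position -152, and in both listed promoters of Fcgr3. The STAT6-type site (TTCNNNNGAA, 6.95% of promoters) matched in Cd36 only, 20 bases after a start that lies inside the annotated gene. The AP-1 site (TGANTCA, 7.81%) matched in none of the 9 listed promoters of members, and the PU.1 core GAGGAA (28.3%) in 6 of the 9, those of Fcgr1, Fcgr3, Fcgr4, Marco and Stab1. None of the searched motifs matched in the Fcgr2b or Fcer1g windows. These are letter matches, which say nothing of whether a factor was bound.

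The stimuli were also set against each other, time by time, in a joint fit of the 27 samples. These differences do not use the untreated means, but the untreated samples entered the estimate of the spread behind their SEs and p-values. At 0.5 h Msr1 and Fcer1g were higher with LPS, where 18.0% of all tested genes were, and Cd36, Fcgr1, Fcgr2b and Fcgr4 were higher with IL-4, where 35.8% were. At 1 h Msr1, Marco, Fcgr4 and Fcer1g were higher with LPS (background 24.0%) and Cd36, Scarb1 and Fcgr2b with IL-4 (background 40.5%). At 2 h Msr1, Marco, Fcgr1, Fcgr4 and Fcer1g were higher with LPS (background 26.4%) and Cd36, Scarb1 and Stab1 with IL-4 (background 42.3%). At 4 h these 5 and Fcgr2b were higher with LPS (background 26.1%), and Scarb1 and Stab1 with IL-4 (background 41.9%). Without Marco the members higher with LPS were 3 at 1 h, 4 at 2 h and 5 at 4 h. Marco aside, which was near 0 with IL-4, the largest differences at 4 h were those of Msr1 at 5.94 ± 0.36, Fcgr4 at 5.25 ± 0.27 and Fcgr1 at 4.65 ± 0.22 on the log2 scale (adjusted p = 5.67e-13, 3.08e-14 and 5.63e-15, limma). With a pseudocount of 8 the values of Fcgr4 and Fcgr1 were 4.25 and 4.42, so their order depends on it.

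Fcgr2b, Fcgr1 and Fcgr4 crossed over between the stimuli, and the difference of Cd36 came near 0 at 4 h. Fcgr2b was lower with LPS than with IL-4 by -1.79 ± 0.16 at 0.5 h, differed by 0.07 at 2 h with a 95% interval from -0.26 to 0.41, and was higher with LPS by 1.36 ± 0.16 at 4 h (adjusted p = 2.14e-09, 0.696 and 7.80e-08, limma). Rescaled to equal totals, the 2 h difference was -0.56 (adjusted p = 0.00321, limma). Fcgr1 went from -1.65 ± 0.22 at 0.5 h over -0.09 ± 0.22 at 1 h to 3.64 ± 0.22 at 2 h (adjusted p = 9.98e-07, 0.752 and 5.87e-13, limma), and its 1 h difference was -0.55 with equal totals (adjusted p = 0.0297, limma). Fcgr4 went from -2.16 ± 0.27 at 0.5 h to 4.44 ± 0.27 at 2 h (adjusted p = 4.35e-07 and 7.18e-13, limma), and its 1 h difference of 0.66 (adjusted p = 0.0375, limma) was lost with any replicate left out (0.54, 0.87 and 0.57, adjusted p = 0.117, 0.0509 and 0.211, limma) and with equal totals (0.22, adjusted p = 0.49, limma). Cd36 was higher with IL-4 at 0.5 h, with a difference of -2.41 ± 0.38 (adjusted p = 8.23e-06, limma), and differed by -0.10 at 4 h with a 95% interval from -0.88 to 0.67. Without replicate 1 that 4 h difference was 0.54 (adjusted p = 0.0105, limma).

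Stab1, which fell with either stimulus, differed between them by -0.69 ± 0.24 at 2 h and -0.67 ± 0.24 at 4 h (adjusted p = 0.0152 and 0.019, limma). Both calls were lost without replicate 3 (-0.81 and -0.75, adjusted p = 0.0558 and 0.078, limma) and with median-of-ratios scaling (-0.42 and -0.39, adjusted p = 0.158 and 0.201, limma). At 0.5 h Fcer1g differed by 0.39 ± 0.16 (adjusted p = 0.0422, limma), a call lost with any replicate left out (adjusted p = 0.0519, 0.292 and 0.053, limma). This value depended on the scaling, at 0.01 with equal totals and 0.64 with median-of-ratios scaling (adjusted p = 0.964 and 0.00165, limma). Its difference was 2.00 ± 0.16 at 1 h and 2.71 ± 0.16 at 2 h (adjusted p = 1.32e-10 and 3.34e-13, limma). Scarb1 differed by -0.23 at 0.5 h, with a 95% interval from -0.58 to 0.11 (-0.61 with equal totals and 0.01 with median-of-ratios scaling, adjusted p = 0.00266 for the former, limma), and by -2.47 ± 0.17 at 2 h (adjusted p = 3.49e-12, limma).

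The difference between the stimuli changed over the course for each of the 9 tested members, or 8 of 8 without Marco, where it did for 53.6% of all tested genes. Between 0.5 and 4 h the LPS minus IL-4 difference moved up by 7.40 ± 0.39 for Fcgr4, 6.30 ± 0.31 for Fcgr1, 3.78 ± 0.51 for Msr1 and 3.15 ± 0.23 for Fcgr2b on the log2 scale (adjusted p = 1.35e-13, 6.59e-14, 1.14e-06 and 4.18e-11, limma). With a pseudocount of 8 it moved up more for Fcgr1, by 5.81, than for Fcgr4, by 5.43. With a pseudocount of 1 it also moved up for Marco, by 5.69, for Cd36, by 2.31, and for Fcer1g, by 1.89. For Cd36 this came from a difference that was near 0 at 4 h, and the call was lost without replicate 2 (1.85, adjusted p = 0.0725, limma). It moved down for Scarb1, by -1.87 ± 0.23, and for Stab1, by -1.12 ± 0.35 (adjusted p = 3.71e-07 and 0.0088, limma), the latter without a call when replicate 3 was left out (-1.21, adjusted p = 0.0629, limma).

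**Figure D3:**
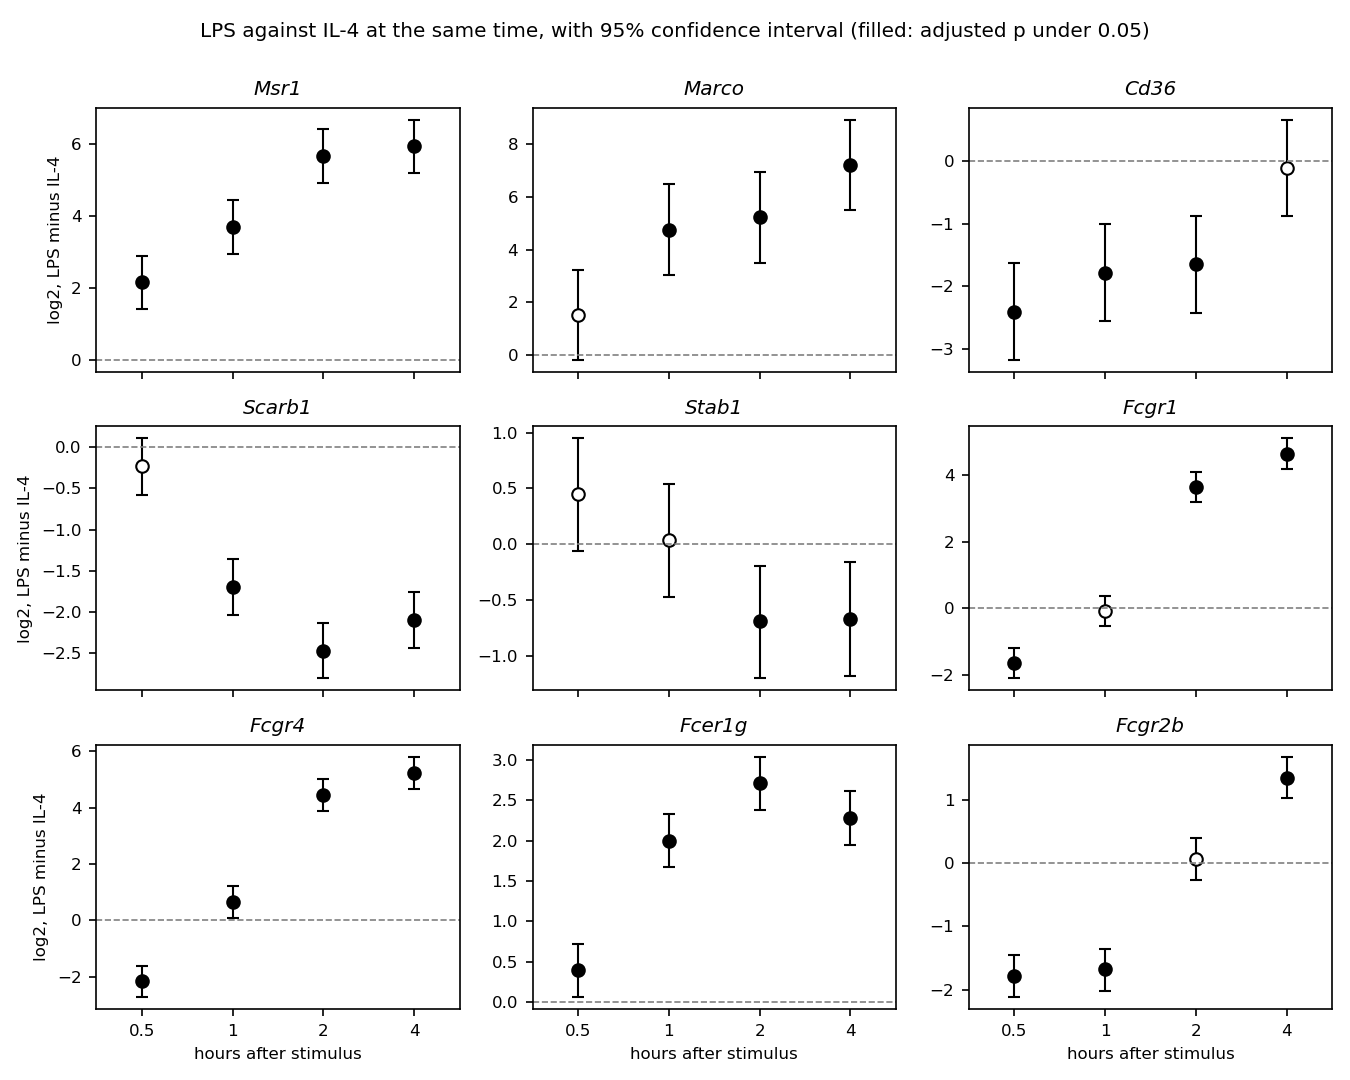
LPS minus IL-4 difference at the same time on the log2 scale (vertical) for the 9 detected members against hours after stimulus (horizontal), with 95% confidence intervals from limma, filled where the adjusted p was under 0.05. The differences of Fcgr1, Fcgr4 and Fcgr2b run from below 0 at 0.5 h to above 0 at 4 h. Those of Scarb1 are below 0, at 0.5 h with an interval that includes 0.

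Ratios of members within a sample do not depend on how the library was scaled. The ratio of the inhibitory Fcgr2b to the activating chain Fcer1g was 1.78, 1.05 and 1.16 in untreated replicates 1, 2 and 3. At 0.5 h of IL-4 it was 14.6, 13.6 and 12.4, after 1 h 16.1, 12 and 19.2, after 2 h 9.53, 14.5 and 16.7, and after 4 h 6.25, 7.23 and 8.65. Under LPS it was 3.71, 2.58 and 2.72 at 0.5 h, between 1.08 and 1.27 at 1 h, between 1.74 and 2.61 at 2 h, and between 3.72 and 4 at 4 h. Every IL-4 sample was therefore above every LPS and untreated sample. The 1 h LPS samples overlapped untreated, and those at 0.5 and 4 h were above it.

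Against the high affinity receptor Fcgr1, the inhibitory Fcgr2b stood at a ratio of 1.86 to 3.56 in untreated samples. This ratio was 12.9 to 22.5 at 0.5 h and 9.58 to 12.1 at 1 h of LPS and came back to 1.89 to 2.01 at 2 h and 2.21 to 2.98 at 4 h. With IL-4 it was between 16.1 and 40.4 in all 12 samples. The ratio of Fcgr1 to Fcer1g was 0.296 to 0.659 in untreated samples, 0.101 to 0.13 at 1 h of LPS and 1.34 to 1.72 at 4 h of LPS. Among scavenger receptors the ratio of Msr1 to Cd36 was 1.65 to 2.96 in untreated samples. It was 118 to 150 at 2 h of LPS and 0.309 to 0.468 at 0.5 and 1 h of IL-4, with no overlap between the 3 sets of samples.

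**Figure D4:**
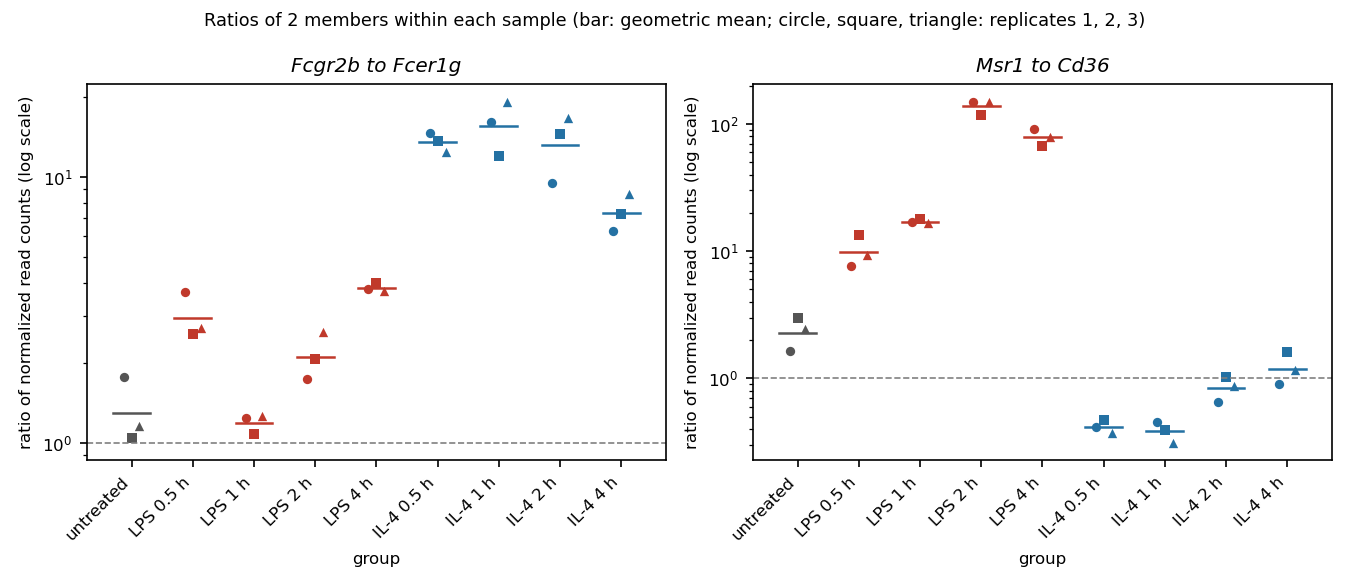
Ratio of normalized read counts within each sample (vertical, log scale) for Fcgr2b to Fcer1g (left) and Msr1 to Cd36 (right) in the 9 groups (horizontal), with 1 point per replicate, bars for geometric means and a dashed line at 1. All 12 IL-4 samples lie between 6.25 and 19.2 on the left, and LPS and IL-4 lie on opposite sides of untreated on the right.

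The order of levels over the 9 groups differed from member to member. Fcgr2b ran from 2461 at 4 h of LPS over 1544 at 1 h of IL-4 to 184 in untreated samples, and in that order the replicates of 1 h IL-4, 2 h LPS, 2 h IL-4 and 0.5 h IL-4 overlapped from neighbour to neighbour. Fcgr1 ran from 971 at 4 h of LPS and 723 at 2 h, both clear of the next group, to 21.7 at 0.5 h of LPS, and its untreated and IL-4 groups and 1 h of LPS overlapped in turn. Msr1 had all 4 LPS groups on top, between 6563 and 10259 and overlapping, and 2 h of IL-4 at the bottom at 126. Cd36 had 0.5 h of IL-4 on top at 3350 and 2 h of LPS at the bottom at 48.3. Scarb1 had untreated on top at 162, overlapping with 4 h and 2 h of IL-4, and 2 h of LPS at the bottom at 26.

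Levels can be compared between genes only per length, and whether the authors counted reads over exons or over whole genes is not stated. Per kilobase of the annotated gene, Stab1 led untreated samples with a mean of 246 normalized read counts, followed by Fcer1g with 29.3, Msr1 with 12.2, Fcgr2b with 11.9, Fcgr1 with 6.54, Cd36 with 3, Scarb1 with 2.53, Fcgr4 with 1.2 and Marco with 0.0109. At 4 h of LPS Msr1 was at 168, Fcgr2b at 159, Fcer1g at 134, Fcgr1 at 87.8 and Stab1 at 32.4. At 4 h of IL-4 Fcgr2b was at 61.7, Stab1 at 51.4 and Fcer1g at 27.3. Per kilobase of exon the 4 leading genes in untreated samples were the same, at 912 for Stab1, 213 for Fcer1g, 186 for Msr1 and 119 for Fcgr2b.

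The other genes of both pathways were read from 5 lists, described here by counts. The F tests over the courses, which 87.6% and 40.3% of all tested genes passed under LPS and IL-4, were passed by 12 and 8 of 12 tested other scavenger receptors. At 4 h of LPS 5 were higher and 6 lower, and at 4 h of IL-4 1 was higher and 6 lower. Olr1, the receptor for oxidized lipoprotein LOX-1, rose from a mean of 1 to 521 at 1 h of LPS. That was a log2 change of 8.13 ± 0.36. As Olr1 was near 0 untreated, its LPS values may have carried it past the filter, and no p-value is given. Cxcl16, a membrane chemokine that binds oxidized lipoprotein, rose from 138 to 1302 at 0.5 h of LPS, a change of 3.24 ± 0.12 (adjusted p = 8.47e-12, limma). The hemoglobin-haptoglobin receptor Cd163 fell from 387 to 9.33 at 4 h of LPS, and Colec12, a scavenger receptor with a lectin domain, from 177 to 25.3 at 2 h. With IL-4 the largest falls were those of Colec12, from 177 to 36.7 at 4 h, and the lipoprotein receptor family member Lrp1, from 2446 to 638 at 2 h.

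Of 6 tested other Fc-binding genes, 6 passed for LPS and 3 for IL-4, and 3 were higher and 3 lower at 4 h of LPS. Trim21, the cytosolic antibody receptor, rose from 25 to 461 and Fcrl5 from 4.33 to 56 at 4 h of LPS. The Fc receptor-like genes Fcrls and Fcrl1 fell from 641 to 58.3 and from 67 to 7 at the same time. With IL-4 Fcrl1 fell from 67 to 9.67 at 4 h and Fcgrt, the neonatal Fc receptor, from 135 to 77.3 at 0.5 h. At each of 1, 2 and 4 h of IL-4 1 gene of this list was higher.

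Of 23 tested genes of proximal Fc receptor signalling, 23 passed for LPS and 18 for IL-4, with 11 higher and 9 lower at 4 h of LPS and 4 higher and 6 lower at 4 h of IL-4. Inpp5d, the phosphatase SHIP1 that acts downstream of Fcgr2b, fell from 2542 to 48.3 at 2 h of LPS, a log2 change of -5.70 ± 0.14 (adjusted p = 5.32e-14, limma), while Fcgr2b itself was higher. Plcg1, a phospholipase, fell from 65 to 9 at the same time. The Src family kinase Fgr rose from 7.33 to 59.7 by 2 h of LPS. With IL-4 the Src family kinase Fyn rose from 523 to 3456 at 2 h and the adaptor Dok2 from 28.3 to 103 at 4 h. Vav3, an exchange factor, fell from 3204 to 748 at 4 h of IL-4 and the Src family kinase Lyn from 3199 to 1135 at 2 h.

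Of 17 tested genes that handle lipid taken up by scavenger receptors, 17 passed for LPS and 8 for IL-4, with 4 higher and 8 lower at 4 h of LPS and 2 higher and 7 lower at 4 h of IL-4. Pparg, the nuclear receptor known as a regulator of Cd36, fell from 806 to 96.7 at 4 h of LPS and rose to 1728 at 1 h of IL-4 (log2 changes of -3.03 ± 0.19 and 1.11 ± 0.20, adjusted p = 1.21e-09 and 0.00129, limma). Its partner Rxra fell from 529 to 15 at 4 h of LPS. The lipid-binding Fabp4 rose from 2.33 to 76.3 at 0.5 h and the fatty acid ligase Acsl1 from 117 to 1250 at 4 h of LPS. With IL-4 the cholesterol transporter Abca1 fell from 2228 to 575 and the cholesterol ester hydrolase Nceh1 from 1024 to 298 at 2 h, while the transporter Abcg1 rose from 181 to 467 at 4 h.

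Of 14 tested other ITAM- or ITIM-linked receptors of myeloid cells, 14 passed for LPS and 10 for IL-4, with 5 higher and 8 lower at 4 h of LPS and 2 higher and 3 lower at 4 h of IL-4. The inhibitory receptors Pirb and Lilrb4a rose under LPS, Pirb from 407 to 2525 by 4 h and Lilrb4a from 776 to 4807 by 1 h, and fell to 184 and 376 at 4 h of IL-4. Thus both were higher at those LPS times, as Fcgr2b was, and lower at 4 h of IL-4, where Fcgr2b was higher. Their earlier IL-4 times are not described here. The inhibitory receptor Cd300a fell from 258 to 7 and its activating relative Cd300lb from 299 to 5 under LPS, at 4 and 2 h. With IL-4 the inhibitory collagen receptor Lair1 rose from 951 to 4375 at 1 h and Cd300lf from 93.7 to 314 at 0.5 h. For the 5 lists together, the background of calls at each time is that given above for LPS and IL-4.

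The genes whose pattern was most like a member's were found by Pearson's r over the 9 group means on the log2 scale, as a description without a test. For Fcgr1 they were Tlr3, Trim34a and Gm5431, with r of 0.992, 0.992 and 0.991, and for Fcgr4 Irgm1, Usb1 and Gm16573, with r of 0.991, 0.991 and 0.989. Fcgr1 and Fcgr4 had r = 0.98 with each other. For Fcer1g they were Myadm, Tapbp and Pi4k2a (0.989, 0.988 and 0.988), and for Fcgr2b 3110056K07Rik, Xdh and Tarm1 (0.980, 0.961 and 0.955). For Cd36 they were Gnat3, Gm31292 and Tgfbr2 (0.970, 0.937 and 0.932). Of these Gnat3 lies on the same chromosome, 73610 bases from Cd36, and went from a mean of 11.3 in untreated samples to 60 at 0.5 h of IL-4. The genes most like Msr1 were A230028O05Rik, Gsap and Carmil1 (0.984, 0.981 and 0.981), and those most like Stab1 were Eya4, Bank1 and Lonrf3 (0.971, 0.971 and 0.970). Scarb1 was most like Ncoa4, Gm33989 and Trp53inp1 (0.987, 0.986 and 0.986), and Marco most like LOC115486847, Zfp811 and Lztfl1 (0.995, 0.991 and 0.989).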

How the data were processed

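Chromatin-associated RNA of BMDMs was sequenced as single-end reads after random-primed Smart-seq2. The authors aligned reads to mm10 with TopHat2 2.1.1 (versions from the submitters' processing notes), removed reads with several hits and those in blacklisted regions with bedtools 2.29.2, counted reads per gene over the RefSeq annotation of GRCm38.p6 and scaled samples on invariant genes. The deposited values are normalized read counts rounded to whole numbers and were treated as a score, since the raw counts and the depth of each sample cannot be read from them. Whether counting used strand or introns is not stated, so overlapping genes can share reads.

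For tests, 1 was added to each value, log2 was taken and limma 3.58.1 was run under R 4.3.3 (mean-variance trend, Benjamini-Hochberg adjustment over the 13901 genes with at least 10 in at least 3 of 27 samples, threshold 0.05). On this scale the fold changes of low genes are understated. Each course was fitted with its 12 samples and the 3 untreated ones, by an F test and 1 contrast per time, and the direct comparison of LPS and IL-4 used all 27 samples. The study used an impulse model over each course, which was not run here. In simulated data for LPS at 2 h against untreated, over 13901 genes, the contrast recovered 148 of 200 changed genes with 7 false calls. That simulation drew independent replicates, raised low untreated means to 10 and changed no more than those 200 genes. In the data 26.9% of tested genes were called higher and 39.0% lower at 2 h of LPS, so these rates need not hold here. The 10 members and the gene lists were chosen with earlier results of these data known.

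All 10 members are described. From each pathway list, the 2 largest rises and 2 largest falls per course were named among genes passing the F test with a mean of at least 50 in the higher group, except 1 gene that is not reported here. The 3 most alike genes per member were taken from tested genes with a group mean of at least 50. Alternatives were another pseudocount (8), other filters, other scalings, sample weights, a replicate block, replicates left out or averaged, and a joint fit.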

Additional observations from a re-analysis of the deposited data

Results flagged for a closer look

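The difference between LPS and IL-4 changed between 0.5 and 4 h for all 9 tested members, or 8 of 8 without Marco. The test was the interaction term of the fit of all 27 samples in limma. On the log2 scale the LPS minus IL-4 difference at 4 h, minus the same at 0.5 h, was 7.40 for Fcgr4, 6.30 for Fcgr1, 5.69 for Marco, 3.78 for Msr1, 3.15 for Fcgr2b, 2.31 for Cd36, 1.89 for Fcer1g, -1.12 for Stab1 and -1.87 for Scarb1. Of all tested genes 53.6% showed such a change. The filter on low values favoured a difference for Marco. Its value depends on the pseudocount (4.24 with a pseudocount of 8). So does the lead of Fcgr4, which rests on low values: with a pseudocount of 8 it was at 5.43 and Fcgr1 at 5.81. The values of Cd36 and Stab1 lost their call with 1 replicate left out.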

How the results depend on the processing

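Of 1560 values of single members under 12 alternatives, 1459 kept their side of the threshold, 17 of these changing sign without a call, 60 lost the call, 39 gained one and 2 reversed. The LPS against IL-4 difference of Fcgr2b at 2 h became -0.56 with equal totals, and that of Cd36 at 4 h ran from -0.46 to 0.54 with 1 replicate left out. Of the counts of called members, that at 1 h of IL-4 became 6 with the replicate block, and that at 4 h of IL-4 became 3 with replicates 2 and 3 averaged and ran from 3 to 6 with 1 replicate left out. All other counts stayed within 1.5 times. Deviations from the group means correlated at r over 0.1 in 106 of 108 same-numbered pairs of samples (lowest 0.09, median 0.31), and 19 of 27 samples correlated best, on average over the other groups, with their own number. As 2 pairs fell short of the r of 0.1 required of every pair and no label ties the numbers to a culture or day, they were not taken to pair the samples. The replicate block gained 10 calls of single members and lost none, among them the IL-4 F test of Fcgr1 (adjusted p = 0.00352, limma), Stab1 at 1 h and Msr1 at 0.5 h of IL-4 (adjusted p = 7.89e-05 and 0.0124, limma) and Marco at 0.5 h of LPS (adjusted p = 0.00181, limma). Of all calls under LPS, 36.3 to 40.8% were higher as deposited, 48.7 to 50% with median-of-ratios scaling and 17.7 to 22.9% with equal totals. The median tested gene then moved under LPS between -0.03 and 0.00 and between -0.95 and -0.75. Marco had no value with a mean of at least 50 required. Without raw counts, the counting error of low members such as Fcgr4 is not known.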
